A study of Mus musculus with 18 samples.

Results

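Transcripts of cathepsin proteases were followed in whole retinas of 9 mice of the albino strain BALB/cJ. The set holds the 10 genes Ctsa, Ctsb, Ctsc, Ctsd, Ctse, Ctsh, Ctsk, Ctsl, Ctss and Ctsz, chosen by their symbols among the 23420 gene symbols counted, and all 10 passed the filter on low counts that left 15196 genes. Young adult wild-type mice of both sexes fell into 3 groups of 3. Naive mice received neither light nor treatment. Mice given vehicle and mice given TD139, called vehicle and TD139 mice here, were exposed to white light of 15000 lux for 1 h, were injected intraperitoneally every day from the day before light with the solvent DMSO or with 15 mg/kg TD139, a small-molecule inhibitor of the sugar-binding protein galectin-3, and were examined 4 days after light. Naive mice differed from vehicle mice in both light and injection, so these factors cannot be told apart. No group had TD139 without light. Summed over both flow cells, each mouse had 26171887 to 30201517 reads on genes.

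Cathepsins are proteases that work mostly in the acidic interior of endosomes and lysosomes. They are made as inactive precursors, are carried to the lysosome by mannose-6-phosphate receptors and become active when the propeptide is cut off at low pH. By the residue that attacks the peptide bond they fall into aspartic (Ctsd, Ctse), cysteine (Ctsb, Ctsc, Ctsh, Ctsk, Ctsl, Ctss, Ctsz) and serine (Ctsa) enzymes. In the retina they are known in microglia and macrophages, which digest engulfed material, and in the retinal pigment epithelium, which degrades shed outer segments.

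After light with vehicle, 8 of the 10 cathepsin transcripts were higher than in naive retina and none was lower. Among these 8 is Ctse, which passed the filter on low counts only through its reads in vehicle mice. With a stricter filter it was not tested and 7 members were called higher. In TD139 mice 8 of the 10 were lower than in vehicle mice and none was higher. By group mean the leading transcript was Ctsd, at 494 ± 37.4 CPM (SD, n = 3) in naive, 1368 ± 263 in vehicle and 480 ± 207 in TD139 mice. In TD139 mice 2 and 3 Ctsb was above it, at 438 against 357 CPM and 406 against 365 CPM. CPM are the reads of a gene per 1000000 reads on genes, after scaling of the libraries by the trimmed mean of M values (TMM). A transcript was called where the adjusted p-value of edgeR's quasi-likelihood test was under 0.05 over all 15196 genes. Of these genes, 4.91% were called higher and 2.89% lower in vehicle than in naive mice, and 16.2% were called lower and 17.2% higher in TD139 than in vehicle mice. This split moved with the scaling: 746 genes higher and 439 lower in the first comparison became 948 and 2133 with a correction for transcript length and GC content and 893 and 258 by library size alone, and 2617 higher and 2455 lower in the second became 2199 and 1147 and 1942 and 3040. The 3 vehicle mice enter both comparisons, which are therefore not independent. In bulk retina, fewer cells of a type and less RNA per cell cannot be told apart.

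**Figure D1:**
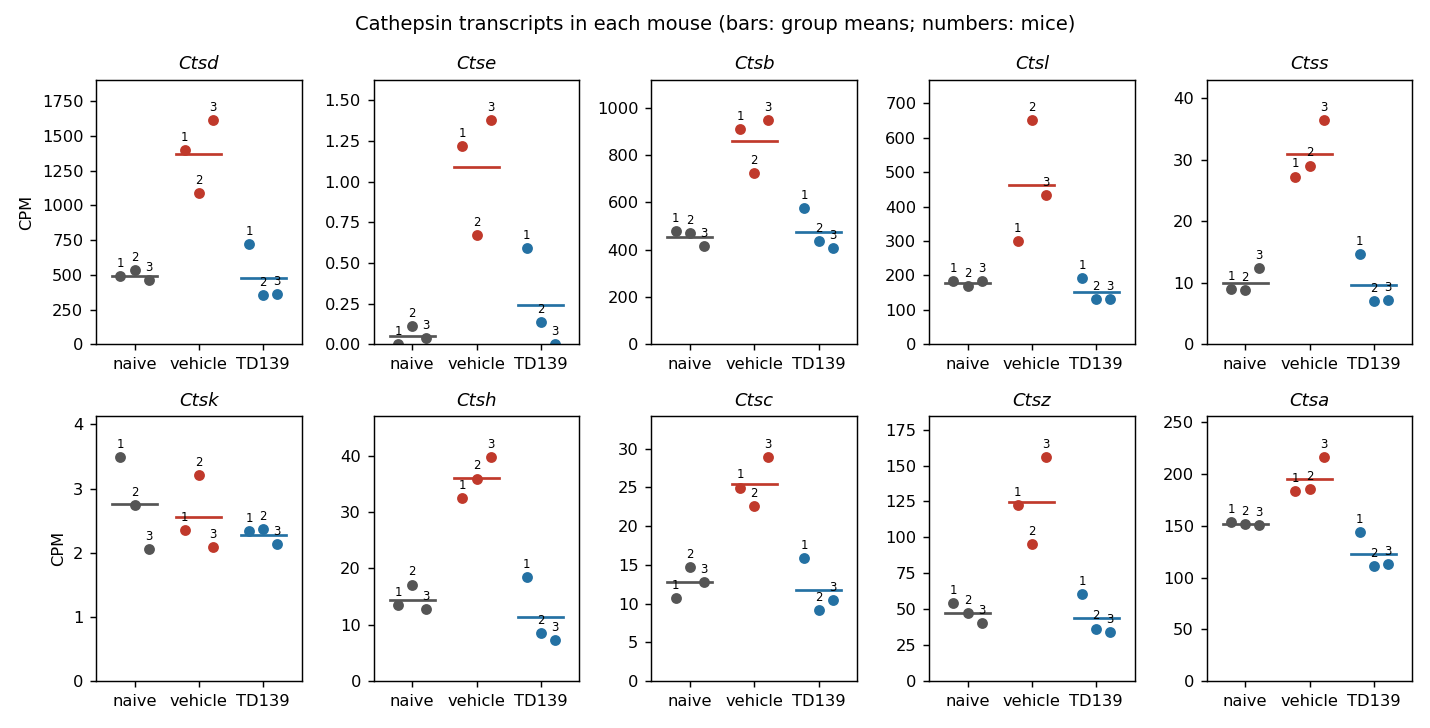
CPM (y axis, from 0) of the 10 cathepsins in each naive, vehicle and TD139 mouse; points are mice, small numbers the mouse within its group, and bars the group means. Vehicle mice lie above all naive and all TD139 mice in 9 of the panels, and in the panel of Ctsk the groups overlap.

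Ctsd (ENSMUSG00000007891, chromosome 7, 142375911 to 142388038, minus strand, GRCm38) encodes cathepsin D, the main aspartic endopeptidase of the lysosome. Its level was 488, 534 and 460 CPM in the naive mice, 1397, 1091 and 1615 CPM in the vehicle mice and 719, 357 and 365 CPM in the TD139 mice. All vehicle mice were above the other 6 mice. TD139 mouse 1 was above every naive mouse and the other 2 TD139 mice were below them. The log2 fold change was 1.47 ± 0.27 (SE) in vehicle against naive mice (edgeR adjusted p = 0.0216) and -1.51 ± 0.27 in TD139 against vehicle mice (adjusted p = 0.00631). Ctse, on chromosome 1, encodes cathepsin E, an aspartic endopeptidase of endosomes in immune and epithelial cells. It was the least abundant member, with 0, 3 and 1 reads in the naive mice, 34, 19 and 41 reads in the vehicle mice and 16, 4 and 0 reads in the TD139 mice. The naive mice were all at or under a floor of 3 reads per mouse, and against that floor the mean of the vehicle mice was at least 9.65-fold higher (adjusted p = 0.0338). Ctse passed the filter on low counts only because of its reads in the vehicle mice, so its call is not support for a difference, and with a filter of at least 1 CPM in 3 mice it was not tested and 7 members were called. The lower level in TD139 mice did not pass the test (log2 fold change -2.13 ± 0.83, edgeR adjusted p = 0.0673), although the groups did not overlap. It was called by limma voom (-4.21, adjusted p = 0.00359) and by edgeR without TD139 mouse 1 (-3.82, adjusted p = 0.00981), and the adjusted p reached 0.223 over the other alternatives.

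Ctsb and Ctsl encode the cysteine endopeptidases cathepsin B and cathepsin L, which are found in most cell types. Ctsb (chromosome 14) was at 480, 471 and 415 CPM in the naive, 911, 725 and 949 CPM in the vehicle and 576, 438 and 406 CPM in the TD139 mice. Its log2 fold changes were the smallest among the 8 members called after light with vehicle, 0.92 ± 0.15 against naive mice (adjusted p = 0.0134) and -0.86 ± 0.15 for TD139 against vehicle mice (adjusted p = 0.00568). Ctsl (chromosome 13) was at 184, 169 and 183 CPM in the naive, 299, 651 and 433 CPM in the vehicle and 191, 133 and 130 CPM in the TD139 mice. The vehicle mice were separate from both other groups but differed among themselves: the coefficient of variation of Ctsl was 38.5%, the highest of the 10 members in that group, against 4.67% in naive mice. Vehicle mouse 2 was highest for Ctsl, whereas vehicle mouse 3 was highest for 8 of the 10 members. Summed markers of the retinal pigment epithelium were also highest in vehicle mouse 2, at 633 CPM against 303 to 461 CPM in naive mice, and their part in the Ctsl value was not tested. The log2 fold change of Ctsl was 1.37 ± 0.26 in vehicle against naive mice (adjusted p = 0.0235) and 1.04 without mouse 2 (adjusted p = 0.0217, with 0.0102 to 0.0836 over the 9 fits that each left out a mouse). It was -1.61 ± 0.26 in TD139 against vehicle mice (adjusted p = 0.00589).

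Ctss and Ctsk encode related cysteine endopeptidases with different homes. Cathepsin S, which stays active at neutral pH and trims the invariant chain of class II molecules, is typical of antigen-presenting cells, and cathepsin K is the collagen-degrading enzyme of osteoclasts. The genes are neighbours in the same orientation on chromosome 3 (GRCm38), Ctsk from 95499256 to 95509362 and Ctss from 95526786 to 95556403, with 17423 bases between them. Ctss was at 8.95, 8.82 and 12.3 CPM in the naive, 27.3, 29.1 and 36.5 CPM in the vehicle and 14.8, 6.99 and 7.15 CPM in the TD139 mice. The vehicle mice did not overlap either other group, and the log2 fold change was 1.62 ± 0.28 against naive mice (adjusted p = 0.0184) and -1.68 ± 0.28 for TD139 against vehicle mice (adjusted p = 0.00575). Ctsk was at 3.50, 2.75 and 2.05 CPM in the naive, 2.36, 3.21 and 2.08 CPM in the vehicle and 2.34, 2.37 and 2.13 CPM in the TD139 mice. All 3 groups overlapped for Ctsk. Its log2 fold change was -0.12 (95% interval -0.71 to 0.48, adjusted p = 0.810) in vehicle against naive mice and -0.16 (-0.76 to 0.44, adjusted p = 0.666) in TD139 against vehicle mice, and its sign changed under some of the other settings listed at the end. Ctsk had 54 to 91 reads per mouse, and a change inside these intervals was not detectable with 3 mice a group.

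Ctsh, Ctsc and Ctsz encode exopeptidases of the cysteine class: cathepsin H and cathepsin C (dipeptidyl peptidase I) cut from the amino end and cathepsin Z from the carboxyl end. Ctsh (chromosome 9) was at 13.4, 17.1 and 12.8 CPM in the naive, 32.5, 35.9 and 39.8 CPM in the vehicle and 18.4, 8.46 and 7.19 CPM in the TD139 mice, with log2 fold changes of 1.32 ± 0.31 (adjusted p = 0.0344) and -1.67 ± 0.31 (adjusted p = 0.00682). Ctsc (chromosome 7) was at 10.7, 14.7 and 12.8 CPM in the naive, 25.0, 22.5 and 29.0 CPM in the vehicle and 15.9, 9.12 and 10.4 CPM in the TD139 mice, with log2 fold changes of 1.00 ± 0.21 (adjusted p = 0.0242) and -1.11 ± 0.21 (adjusted p = 0.00618). In both genes the vehicle mice stood clear of the other groups. Ctsz (chromosome 2), which lies apart from the other members in having a short propeptide, was at 54.1, 47.6 and 40.4 CPM in the naive, 122, 95.5 and 156 CPM in the vehicle and 60.7, 36.5 and 33.9 CPM in the TD139 mice. Its log2 fold changes were 1.40 ± 0.25 (adjusted p = 0.0207) and -1.51 ± 0.25 (adjusted p = 0.00591), again with no overlap of the vehicle mice with either group.

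Ctsa (chromosome 2) encodes cathepsin A, a serine carboxypeptidase that also shields the glycosidases Neu1 and Glb1 from degradation in the lysosome. It was at 153, 152 and 151 CPM in the naive, 183, 186 and 217 CPM in the vehicle and 144, 111 and 114 CPM in the TD139 mice. The groups did not overlap in any pair, and the order was vehicle, naive, TD139. Against naive mice the log2 fold change of 0.36 ± 0.11 in vehicle mice did not pass the test (edgeR adjusted p = 0.0683), although DESeq2 called it (adjusted p = 0.0244, with 0.0183 to 0.0957 over the alternatives that kept all mice). Under TD139 Ctsa was lower than with vehicle, with a log2 fold change of -0.67 ± 0.11 (adjusted p = 0.00568). Against naive mice it was -0.31 ± 0.11 in TD139 mice (adjusted p = 0.0996).

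**Figure D2:**
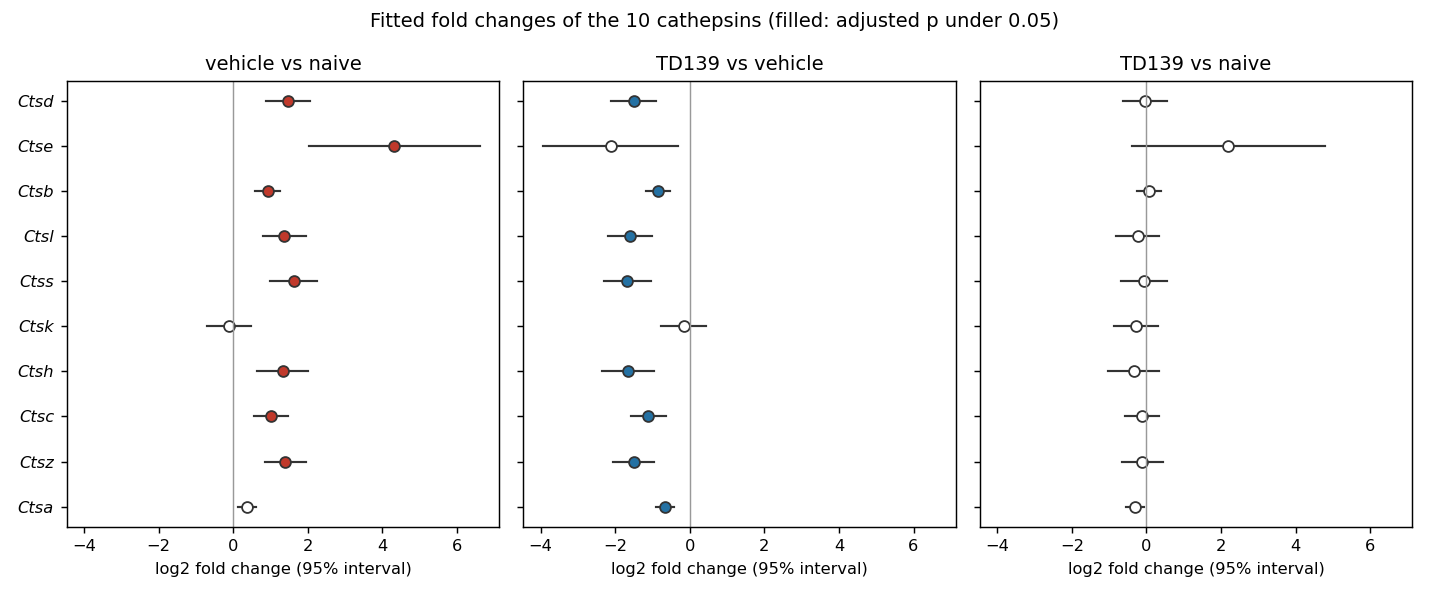
Fitted log2 fold changes (points) with 95% intervals (lines) of the 10 cathepsins in the 3 comparisons, red where called higher, blue where called lower and white where the adjusted p-value was 0.05 or more. The intervals of 8 members in vehicle against naive mice lie above 0 with a call, among them Ctse, which was tested only through its reads in vehicle mice. In TD139 against vehicle mice 8 lie below 0 with a call, and none is called in TD139 against naive mice.

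Set side by side, the median log2 fold change of the 10 members was 1.35 in vehicle against naive mice and -1.51 in TD139 against vehicle mice, where the medians of all tested genes were -0.0018 and -0.016. Taking Ctse at its bound of 3.27 left the first median at 1.35, which could not move because Ctse remained the highest member. The vehicle mice were all above the naive mice in 9 members, against 16.7% of all genes tested, and the TD139 mice were all below the vehicle mice in 9 members, against 25.4% of all genes tested. Both counts of 9 include Ctse, whose place among the tested genes came only from its reads in vehicle mice, so its separation is not support for a difference. At the cut-off of the study, a log2 fold change of at least 2 in either direction, taken here together with an adjusted p under 0.05, Ctse alone passed after light with vehicle (1.24% of all genes tested passed upward). Its fitted value depends on the small number added to counts, and it was tested only through its reads in vehicle mice. No member passed both criteria downward under TD139 (1.53% of all genes tested did), where Ctse had a log2 fold change of -2.13 without passing the test. Most calls in vehicle against naive mice were lost without any 1 naive mouse or without vehicle mouse 1 or 3, though not without vehicle mouse 2. Called were 1 member (Ctsb) without naive mouse 1, none without naive mouse 2 and 2 (Ctsb and Ctss) without naive mouse 3. There were 3 (Ctsb, Ctsl and Ctss) without vehicle mouse 1 and none without vehicle mouse 3. Without vehicle mouse 2, 7 members were called and Ctsh was not, and without TD139 mouse 1, Ctsa was called as well (adjusted p = 0.0203). Over all genes the calls of higher transcripts fell, in the 5 fits with fewer calls named first, from 746 to 62, 1, 140, 219 and 65. The log2 fold changes of the 8 called members stayed above 0 in these fits, and that of Ctsd ran from 1.33 to 1.61 over the 9 fits that each left out a mouse. The 8 calls in TD139 against vehicle mice were made in each of those 9 fits. Ctse was called in addition without TD139 mouse 1 (adjusted p = 0.00981).

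TD139 and naive mice were compared to ask how near the cathepsin levels lay without and after light under the inhibitor. No member was called by edgeR (0 also by DESeq2, 2 by limma voom with sample weights, which called Ctsa and Ctsh lower), and Ctsa alone had an unadjusted p-value under 0.05. Over all genes 2.72% were called higher and 2.38% lower (413 and 362 genes), a background that ranged from 0 genes with the replicate block or the length and GC correction to 2995 and 2472 by voom. The median log2 fold change of the 10 members was -0.11. For Ctsd it was -0.04 with a 95% interval from -0.62 to 0.54, and for Ctsb 0.06 with an interval from -0.27 to 0.38, so moderate differences in either direction were not detectable with 3 mice a group. In 1 member, Ctsa, all TD139 mice were below all naive mice, against 16.8% of all genes tested. The TD139 mice were not alike. Mouse 1 was the highest of its group in 9 members and was above the naive range in 8, whereas mouse 2 was below the naive range in 7 members and mouse 3 in 8. Without mouse 1, 2 members were called lower than in naive mice, Ctsh with a log2 fold change of -0.87 (adjusted p = 0.0263) and Ctsa with -0.43 (adjusted p = 0.0307), in a fit that called 613 genes lower and 1041 higher over all genes. Over all fits without a mouse the adjusted p reached 0.875 for Ctsh and 0.317 for Ctsa.

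For a comparison between genes, CPM were divided by the length of the shortest annotated coding transcript. In naive retina the order of mean CPM per kb was Ctsd (257 ± 19.5, SD, n = 3), Ctsb (96.0 ± 7.38), Ctsl (90.5 ± 4.22), Ctsa (60.0 ± 0.51), Ctsz (32.9 ± 4.73), Ctsh (8.92 ± 1.45), Ctss (7.40 ± 1.46), Ctsc (5.11 ± 0.81), Ctsk (1.83 ± 0.48) and Ctse (0.027 ± 0.031). The ranges of Ctsb and Ctsl overlapped, as did those of Ctsh and Ctss, while the other neighbours did not. The position of Ctsl depends on the transcript, since the longest coding form has 6168 bases and the shortest 1971. With the longest forms Ctsl held 6.39% instead of 16.2% of the summed level of the naive mice. In vehicle retina Ctsl and Ctsb overlapped at 234 ± 90.1 and 182 ± 25.3 CPM per kb, and Ctsz overlapped Ctsa at 86.5 ± 21.1 and 77.1 ± 7.39 CPM per kb.

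The summed level of the 10 members was 568, 581 and 531 CPM per kb in the naive mice, 1281, 1246 and 1519 CPM per kb in the vehicle mice and 722, 430 and 425 CPM per kb in the TD139 mice. The vehicle mice were above all others, and TD139 mouse 1 was above the naive mice while the other 2 TD139 mice were below them. Ctsd made up 44.7 to 47.9% of that sum in naive, 45.6 to 56.8% in vehicle and 43.2 to 51.8% in TD139 mice. The lowest of the vehicle shares was that of mouse 2, in which Ctsl reached 26.5% of the sum. Ctsa held 10.3 to 11.2% in naive, 5.63 to 5.88% in vehicle and 7.85 to 10.5% in TD139 mice. These shares are descriptions, and a share falls when another member rises.

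**Figure D3:**
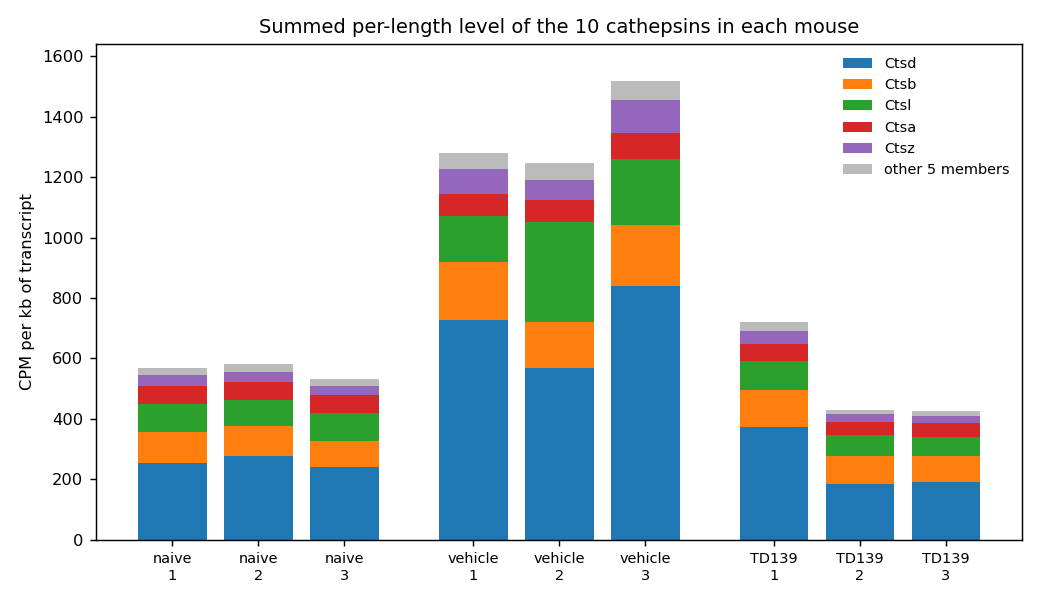
Stacked level of the cathepsins in CPM per kb of the shortest coding transcript (y axis, from 0) in each of the 9 mice. The vehicle bars reach 1246 to 1519, TD139 mouse 1 reaches 722, and the wide Ctsl segment is in vehicle mouse 2.

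Upstream sequence is shown for Ctsd, the leading transcript, for Ctsz, a called member of another class, and for the neighbours Ctss and Ctsk, of which one was called and one was not. RefSeq windows of GRCm38.p6 matched 7 of the 10 members, with 8 windows in all. The 250 bases before the start annotated by RefSeq were searched on both strands for CACGTG, the E-box core bound by factors such as TFEB, for GAGGAA, the core bound by the myeloid factor PU.1, and for GGGCGG, the GC box bound by Sp1. Matches are in capitals, and the 5′ to 3′ direction is that of the gene. For Ctsd only the part before the first annotated exon is printed (chr7:142388039-142388077, minus strand). The others are chr2:174439040-174439289 (Ctsz, minus strand), chr3:95526536-95526785 (Ctss, plus strand) and chr3:95498960-95499209 (Ctsk, plus strand).
Ctsd: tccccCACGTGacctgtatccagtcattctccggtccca
Ctsz: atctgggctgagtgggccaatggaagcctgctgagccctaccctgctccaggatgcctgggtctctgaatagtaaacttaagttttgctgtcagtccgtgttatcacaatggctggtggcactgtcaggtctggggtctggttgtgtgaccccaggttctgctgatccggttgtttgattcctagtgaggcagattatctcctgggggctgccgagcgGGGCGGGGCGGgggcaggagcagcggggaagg
Ctss: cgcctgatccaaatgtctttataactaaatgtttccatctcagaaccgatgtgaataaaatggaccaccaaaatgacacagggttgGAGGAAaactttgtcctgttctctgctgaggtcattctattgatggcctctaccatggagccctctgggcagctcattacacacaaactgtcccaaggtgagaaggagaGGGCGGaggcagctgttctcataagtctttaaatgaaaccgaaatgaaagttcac
Ctsk: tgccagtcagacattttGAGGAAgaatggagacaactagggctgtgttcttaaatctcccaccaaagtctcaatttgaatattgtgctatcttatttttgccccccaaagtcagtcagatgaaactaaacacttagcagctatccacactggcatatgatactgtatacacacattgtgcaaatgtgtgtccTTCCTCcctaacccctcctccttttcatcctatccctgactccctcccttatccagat
CACGTG was found in the windows of Ctsd (at 245 and 98 bases before the RefSeq start), Ctsl (at 236 bases) and Ctsa (at 12 bases in 1 of its 2 windows), and in 6.02% of the 32851 windows of all genes. GAGGAA was found in the windows of Ctsc, Ctss and Ctsk and in 23.3% of all windows, so the called Ctss and the uncalled Ctsk both hold it. GGGCGG was found in the windows of Ctsc, Ctsd, Ctss and Ctsz, where its 2 matches overlap, and in 32.7% of all windows. The Ctsl window, the Ctsa window with the match and all but the first 39 bases of the Ctsd window lie inside the longer gene models of GENCODE, and of the CACGTG matches only the one at 245 bases in Ctsd lies before the GENCODE gene. These matches describe letters only, and binding was not measured.

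Other genes named as cathepsins did not show the pattern at a level that passed the test. Of 13 such genes, 2 were tested and neither was called: Ctsf had means of 251, 245 and 215 CPM in naive, vehicle and TD139 mice, and Ctso 18.0, 30.8 and 23.8 CPM. Ctso gave a log2 fold change of 0.77 in vehicle against naive mice (adjusted p = 0.0821). A further 10, among them the placental cathepsins of rodents, had no read in any mouse, and Ctsw of cytotoxic lymphocytes was not tested. Of the other lysosomal peptidases, Tpp1, Scpep1, Prcp and Dpp7 were tested and none was called in either comparison. Tpp1, which removes tripeptides, stayed at means of 149, 150 and 167 CPM.

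Among the inhibitors of cysteine cathepsins, 6 of 24 genes were tested and none was called in vehicle against naive mice. In TD139 against vehicle mice 2 were called lower, beside 16.2% of all genes tested. Cstb (stefin B, in the cytosol) was called lower by a log2 fold change of -0.83 (adjusted p = 0.00601), and it was also lower than in naive mice (-0.59, adjusted p = 0.0487). Ctla2a, which resembles a cathepsin propeptide, was the other (-1.17, adjusted p = 0.0434). Cst3, the secreted cystatin C and the most abundant of the list, had means of 1030, 1006 and 714 CPM and was not called (adjusted p = 0.0908 for TD139 against vehicle mice). Cst7 (cystatin F, of myeloid cells) was not tested: it had no read in the naive mice, 9, 11 and 29 reads in the vehicle mice and 4, 0 and 0 reads in the TD139 mice.

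Of the 10 genes of precursor activation and mannose-6-phosphate sorting, none was called in vehicle against naive mice. In TD139 against vehicle mice 1 was called lower and 2 higher, shares near those of all genes tested (16.2% and 17.2%). Lgmn (legumain, an asparaginyl endopeptidase that processes cathepsins) was the lower one, with a log2 fold change of -0.47 (adjusted p = 0.00950) from means of 325 to 235 CPM. Gga3, a sorting adaptor, rose by 0.42 (adjusted p = 0.0110) and Igf2r, the large mannose-6-phosphate receptor, by 0.35 (adjusted p = 0.0329). Of the MiT/TFE factors, which drive lysosomal genes, Tfeb was called lower in TD139 against vehicle mice (-0.69, adjusted p = 0.0103), with 0.43 (adjusted p = 0.106) in vehicle against naive mice, and Tfe3 and Mitf were not called. Tfec had too few reads to be tested.

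Of 20 tested genes of the vacuolar proton pump, which acidifies the lysosome, Tcirg1 alone was called in vehicle against naive mice (1.02, adjusted p = 0.0249). Over all genes tested 4.91% were called higher in that comparison. In TD139 against vehicle mice 7 were called lower and none higher, beside 16.2% and 17.2% of all genes tested. Tcirg1, the a3 subunit of osteoclasts and macrophages, had the largest of these changes (-1.02, adjusted p = 0.00810), and the abundant Atp6v0d1 (-0.34, adjusted p = 0.0132), Atp6v1e1 (-0.36, adjusted p = 0.0151), Atp6v1d (-0.28, adjusted p = 0.0364), Atp6v1f (-0.68, adjusted p = 0.00618) and Atp6v1g1 (-0.30, adjusted p = 0.0366) had smaller values. The median of the 20 genes was 0.07 and -0.21 in the 2 comparisons, beside 1.35 and -1.51 for the cathepsins.

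Known partners of single cathepsins were counted as well. The glycosidases held by cathepsin A, Glb1 and Neu1, had sums of 93.3 to 97.8, 88.6 to 104 and 76.5 to 78.4 CPM in naive, vehicle and TD139 mice. Glb1 was called lower in TD139 against vehicle mice (-0.76, adjusted p = 0.0208) and Neu1 was not (-0.25, adjusted p = 0.0571). Of 6 tested genes of invariant chain and class II presentation, where cathepsin S acts, H2-Aa was called higher in vehicle against naive mice (adjusted p = 0.0246), with 0, 1 and 3 reads in the naive, 25, 64 and 22 in the vehicle and 14, 2 and 2 in the TD139 mice. It passed the filter on low counts only because of the vehicle mice, as Ctse did, so its calls are not support for a difference. Ifi30 (-1.13, adjusted p = 0.00719), H2-Ab1 (-1.10, adjusted p = 0.00623) and H2-Aa (-2.52, adjusted p = 0.0287) were called lower under TD139, and the invariant chain gene Cd74, at means of 0.68, 2.79 and 0.86 CPM, was not called. The median of these 6 genes, H2-Aa included, was 1.40 and -1.41 in the 2 comparisons, near that of the cathepsins. Apart from H2-Aa none of them was called in vehicle against naive mice. In TD139 against vehicle mice 16.2% of all genes tested were called lower. Of the 8 granule proteases that cathepsin C activates, only Prtn3 had reads enough to be tested. At means of 1.13, 1.78 and 0.86 CPM it was called lower in TD139 against vehicle mice (log2 fold change -1.04, adjusted p = 0.0366) and was not called in vehicle against naive mice (0.66, adjusted p = 0.228).

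**Figure D4:**
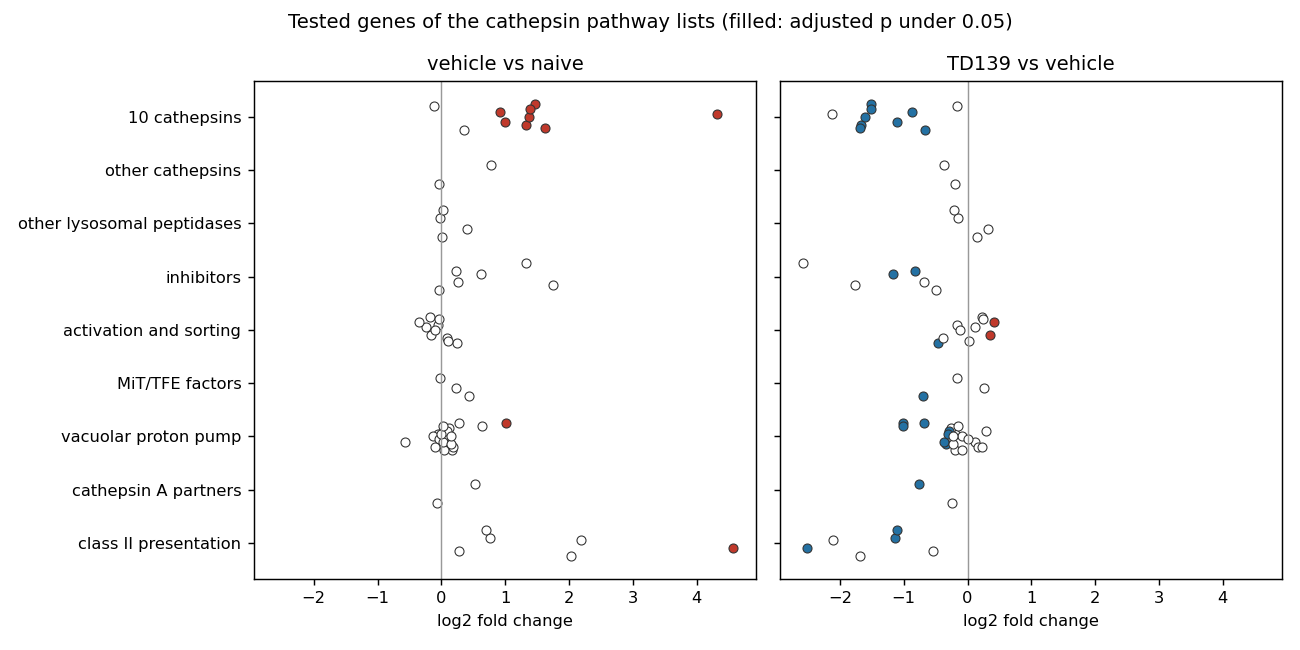
Log2 fold changes (x axis) of the tested genes of each pathway list in vehicle against naive mice and in TD139 against vehicle mice; each point is a gene, red where called higher, blue where called lower and white where not called. The cathepsin row holds 8 red points on the left and 8 blue points on the right, while the proton pump row holds 1 red and 7 blue. Ctse is among the red points of the cathepsin row and was tested only through its reads in vehicle mice.

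Some markers of microglia and macrophages moved in both comparisons. All 9 microglial markers reported here passed the filter: 4 were called higher in vehicle against naive mice and 4 lower in TD139 against vehicle mice. Over all genes tested 4.91% were called higher in the first comparison and 16.2% lower in the second. Their summed level was 16.4 to 19.4 CPM in naive, 57.7 to 68.5 CPM in vehicle and 15.0 to 36.8 CPM in TD139 mice, and their median log2 fold change was 1.31 and -1.26 in the 2 comparisons. Among the called markers were Csf1r, with means of 8.93, 32.8 and 11.1 CPM, and Cx3cr1 with 2.88, 12.1 and 4.22 CPM, while P2ry12 was not called in either comparison. Of 9 markers of monocytes and macrophages, 4 passed the filter and 1 (Ms4a7) was called in each comparison, a gene that was tested only through its reads in vehicle mice (43, 16 and 86, against 0 to 2 in naive mice). Their sum was 2.38 to 10.2 CPM in naive, 63.1 to 100 CPM in vehicle and 3.13 to 40.7 CPM in TD139 mice, the last range reaching its top in mouse 1, and Ccr2 had no read in any naive mouse. Lyz2, which was not called, made up most of the sum in vehicle mice, at 92.5, 44.2 and 94.0 CPM. Markers of neutrophils stayed at a sum of at most 0.54 CPM and those of T and NK lymphocytes at 0.87 CPM or less.

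Marker transcripts of some resident retinal cells moved as well. Of 8 Müller glia markers, 6 were called higher in vehicle against naive mice and 3 lower in TD139 against vehicle mice, with sums of 4831 to 5626, 7436 to 7907 and 5111 to 6749 CPM in naive, vehicle and TD139 mice. Of 5 astrocyte markers 2 were called higher and 2 lower in the same comparisons, with sums of 124 to 164, 250 to 528 and 133 to 203 CPM. Aqp4 is in both the Müller glia and the astrocyte list, so the counts of these lists are not separate. Of 8 markers of endothelial cells and pericytes none was called in vehicle against naive mice, with sums of 194 to 277, 357 to 499 and 255 to 490 CPM. The 8 rod markers, whose high sums of 68160 to 77100 CPM in naive mice fit the label of retina, were lower in vehicle mice at 39470 to 54910 CPM (6 called) and at 56200 to 70010 CPM in TD139 mice (5 called higher than in vehicle mice). Of 9 markers of the retinal pigment epithelium, 8 were tested; Otx2, which photoreceptors and bipolar cells also express, was the called gene that rose under TD139, and Rpe65 and Ttr were called lower. Their sum was 303 to 461, 329 to 633 and 348 to 359 CPM, with overlap between all groups. No marker of cones, bipolar, amacrine or ganglion cells was called in vehicle against naive mice. In TD139 against vehicle mice 4 of the 8 bipolar markers were called higher and 2 lower. Called as well were 1 cone marker (higher), 1 amacrine and 1 ganglion cell marker (lower), and 1 endothelial or pericyte marker in each direction. Over all genes tested 17.2% were called higher and 16.2% lower in that comparison, so a single call in a list of 8 is near that share. In vehicle against naive mice the shares were 4.91% and 2.89%. The part of these cell types in the cathepsin values was not tested.

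**Figure D5:**
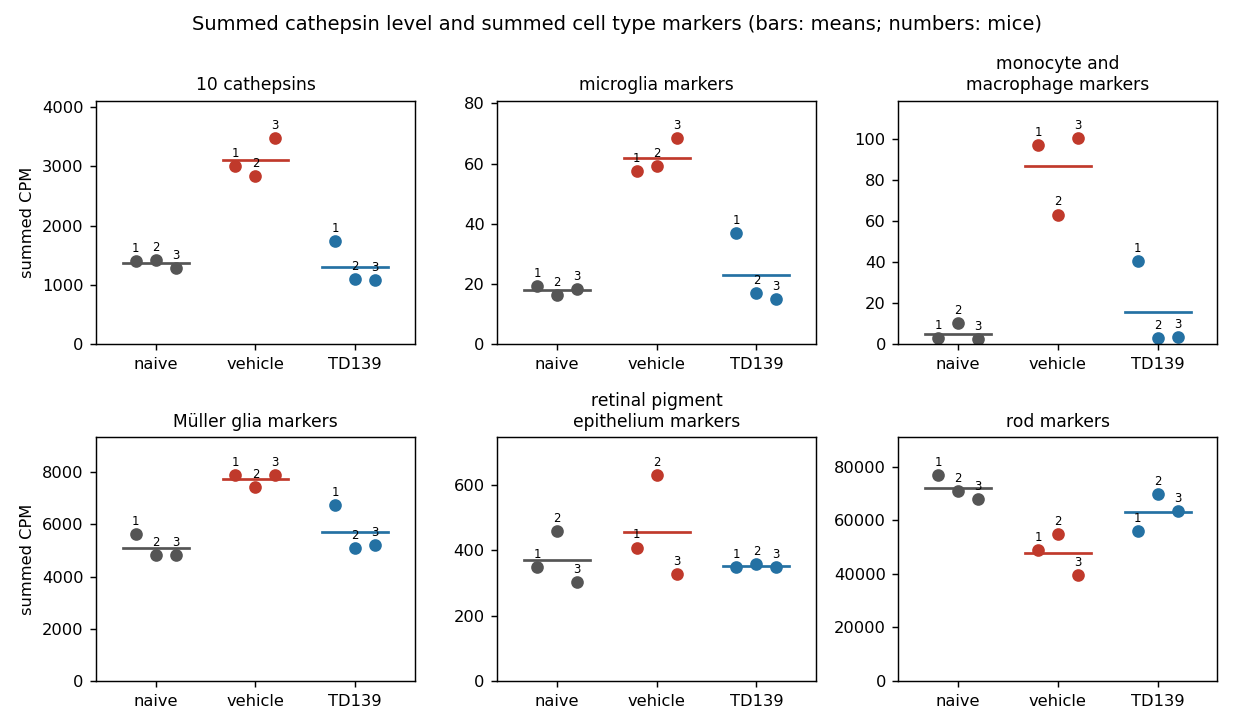
Summed CPM (y axes, from 0) of the 10 cathepsins and of the marker lists of 5 cell types in each mouse; points are mice, small numbers the mouse within its group, and bars the group means. Microglial, monocyte and macrophage, and Müller glia markers place the vehicle mice above the others as the cathepsins do, rod markers place them below the naive mice, and pigment epithelium markers overlap.

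Technical measures also differed between groups. The share of reads outside genes was 21.3 to 22.8% in TD139 mice, against 19.1 to 19.9% in naive and 16.5 to 19.4% in vehicle mice. The fold changes of TD139 against vehicle mice followed transcript length over 15068 genes (Spearman's rho across genes 0.501, which are not independent replicates), those of TD139 against naive mice did so too (rho 0.61), and those of vehicle against naive mice gave rho -0.103. With GC content rho was -0.375, -0.42 and 0.122 in the same order. With a correction for length and GC content the same 8 members were called lower under TD139, at -1.13 for Ctsd, -0.96 for Ctsz, -1.36 for Ctss and -1.97 for Ctsl, the last computed with the 6168-base form. The part of length in the fold changes was not tested otherwise. Genes on the opposite strand share exon bases with Ctsl (Gm47123, 1742 bases), Ctsb (Fdft1, 774), Ctsa (Neurl2, 324, and Pltp, 495) and Ctsz (Nelfcd, 10), and on the same strand Gm49369 shares 670 bases with Ctsd and Gm49230 395 with Ctsl. Fdft1, Neurl2, Pltp and Nelfcd are counted apart from the members they overlap, so reads of the shared bases are uncertain, and whether the counting used strand is not given in the sources used here. The 3 Gm genes were not analysed here, and of the other 4 only Nelfcd was called, lower in TD139 against vehicle mice (-0.28, adjusted p = 0.0250).

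The genes whose log2 CPM over the 9 mice was most like that of a member were found for each of the 10, leaving out the other members. These correlations describe 9 points that form 3 groups and share libraries, and carry no test. Ctsd was followed most closely by BC064078 (r = 0.997), Nfkb2 (0.996) and Grn (0.995), the progranulin gene. Ctsb was followed by Nlrc5 (0.995), Plin2 (0.991) and Prdx6 (0.990), and Ctsz by Plin2 (0.994), Fabp5 (0.993) and Tpt1 (0.992). For Ctss these were Icosl (0.991), Syde1 (0.991) and Lcn2 (0.990), for Ctsh Rras (0.995), Fxyd3 (0.994) and Tst (0.992), and for Ctsc Mlc1 (0.992), Plscr1 (0.990) and Plscr2 (0.989). Ctsl was followed by Itgb5 (0.988), Nqo1 (0.984) and Arap1 (0.979), Ctsa by Mfsd5 (0.993), Dcxr (0.990) and Slc41a3 (0.988), and the sparsely counted Ctse by Cav1 (0.988), C3ar1 (0.982) and Ildr2 (0.981). Plin2, which coats lipid droplets, was the one gene named for 2 members. Ctsk was followed most closely by 2810001G20Rik (0.960) and Alyref2 (0.949), and its own correlation with the other members ran from -0.151 to 0.243.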

How the data were processed

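Poly(A) RNA of the retinas was sequenced in single reads on 2 flow cells. The authors deposited unscaled whole-number counts of reads per gene from BaseSpace RNA Express, a table per mouse and run, although the statement on data speaks of normalized counts. The build is mm10 per the submitters' processing notes, and the annotation is not given in the sources used here. The runs were added up per mouse, giving n = 3 mice a group. Reads outside genes or ambiguous were left out of library sizes. Separate libraries per mouse are labelled, so p-values measure the spread between mice.

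Tests used edgeR 4.0.16 in R 4.3.3 (filterByExpr, TMM, robust quasi-likelihood F test, all 3 groups in 1 fit, two-sided, Benjamini-Hochberg over all tested genes), and were tested on simulated data. The standard error is the log2 fold change divided by the square root of F. Alternatives were DESeq2 1.42.0, limma 3.58.1 (voom), RLE or library-size scaling, other filters, a fit without the group not compared, a replicate block, single flow cells, a length and GC offset, and each mouse left out. The use of the longest transcript was added after seeing the data. Positions and lengths came from GENCODE M21 on GRCm38, which matched 98.4% of the symbols.

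The members and lists were chosen with earlier results of these data known. All members are named, with the 3 other genes most like each, and of each list the counts and up to 5 called genes of highest level, or all genes in lists of up to 4. A marker of microglia and a gene like Ctsk are not reported here. Genes chosen after their values were seen are Ctso, Ctsf, Cst3, Cst7, Cd74, Neu1, P2ry12, Tcirg1, the genes overlapping members and those in the closing observations.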

Additional observations from a re-analysis of the deposited data

How the results depend on the processing

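In TD139 against vehicle mice, 8 or 9 members were called under every alternative run, with the replicate block and with any 1 mouse left out included. In vehicle against naive mice the count was 6 to 9 under the alternatives other than leaving out a mouse, and 0 to 9 with a mouse left out. With the replicate block it was 6, since Ctse (adjusted p = 0.0541) and Ctsh (adjusted p = 0.0543) lost their calls. Over the 9 pairs of mice with the same number, deviations from the group means correlated from -0.259 to 0.282 and only 2 pairs exceeded 0.1, so the numbers were not taken to pair the mice. In TD139 against naive mice no member was called except by voom (2) and over the fits without a mouse (0 to 2). Scaling by library size alone shifted the median of all genes to 0.09 in vehicle against naive mice and to -0.10 in TD139 against vehicle mice, and the length and GC correction shifted the first to -0.11. Over all genes, the 746 higher and 439 lower calls in vehicle against naive mice became 1355 and 1063 by DESeq2, 1821 and 1512 by voom, 948 and 2133 with that correction, 893 and 258 by library size, and 1 to 1167 and 0 to 815 with a mouse left out. The 2617 and 2455 in TD139 against vehicle mice became 2199 and 1147 with the correction, 1942 and 3040 by library size, and 867 to 2995 and 759 to 2931 with a mouse left out. In TD139 against naive mice (413 and 362) none was called with the replicate block, with the correction or without naive mouse 1 or 2, vehicle mouse 2 or TD139 mouse 2 or 3; 1523 and 1156 were called without naive mouse 3, 1041 and 613 without TD139 mouse 1, 1447 and 1185 by DESeq2, 366 and 194 by library size, 1 and 0 with only the groups compared, and 2995 and 2472 by voom.

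Values that changed sign were not called in any fit, and the cause was not tested. Ctsk went to 0.14 with flow cell run 2 alone and to -0.32 to 0.10 with a mouse left out (vehicle against naive), to 0.23 with the length and GC correction and to -0.29 to 0.038 with a mouse left out (TD139 against vehicle), and to 0.048 with run 2 alone (TD139 against naive). In TD139 against naive mice voom gave -0.10 for Ctsb and -0.79 for Ctse, run 2 alone gave 0.026 for Ctss, and the correction gave -0.14 for Ctsb, 0.16 for Ctsd, 0.089 for Ctss and 0.22 for Ctsz. With a mouse left out that comparison ran from -0.10 to 0.16 for Ctsb, -0.37 to 0.055 for Ctsc, -0.44 to 0.14 for Ctsd, -0.49 to 0.14 for Ctss and -0.42 to 0.047 for Ctsz. Ctse and Ctsk had the fewest reads, at most 41 and 91 in a mouse. The standard error of Ctsk in vehicle against naive mice (0.27) was close to that of Ctsd (0.27), and the part of read depth in either was not tested.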

Other observations

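A stefin A family gene, BC100530, was not tested because it was seen in too few mice: it had 5, 0 and 0 reads in the naive mice, 1, 137 and 0 reads in the vehicle mice and 1, 0 and 0 reads in the TD139 mice. The vehicle mouse with 137 reads is the one with the highest Ctsl level. Lyz2, the lysozyme gene of myeloid cells, had 20, 51 and 22 reads in the naive mice, 2586, 1250 and 2797 reads in the vehicle mice and 723, 20 and 22 reads in the TD139 mice. The TD139 mouse with 723 reads is the one whose cathepsin levels lay above the naive range in 8 members. Over the runs of both flow cells, the ratio of a member's CPM in a mouse lay between 0.773 and 1.30 in the 72 of 90 pairs with at least 100 reads.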
